A study of Mus musculus with 7 samples.

Results

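The nuclear-encoded subunits of the mitochondrial respiratory chain and ATP synthase were examined across 7 mouse tumours. The genes were taken by symbol, as every Nduf gene of the a, b, c, s and v series, Sdha to Sdhd, every Uqcr gene, Cox4 to Cox8 and every Atp5 gene of the deposited expression table, and 7 entries with -ps in the name, which marks pseudogenes, were left out. This gave 87 of the 28233 genes in the table, with 42 in complex I, 4 in complex II, 8 in complex III, 16 in complex IV and 17 in complex V. The tumours came from a line of the B16 mouse melanoma, which the labels spell both B16mhgp100 and B16mghp100, placed under the skin of C57BL/6 mice. Tumours Cr1l 1 to Cr1l 4 over-expressed Cr1l, the gene of the complement regulator Crry, and tumours Vec 5 to Vec 7 carried the vector. All 7 mice were given an anti-PD1 antibody (200 µg per dose, 4 doses at 2 per week from day 10), and RNA was taken from whole tumours 1 day after the last dose. The sources used here do not say whether a group came from 1 clone, and no mouse without the antibody was among the samples.

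The respiratory chain passes electrons from NADH (complex I) and succinate (complex II) through complexes III and IV to oxygen, and the proton gradient this builds drives ATP synthase (complex V). Most subunits are encoded in the nucleus and imported into mitochondria, while a small set of core subunits of complexes I, III, IV and V is encoded by the mitochondrial genome. Complex II is wholly nuclear. The transcription factors NRF1, GABP (an ETS factor) and YY1 are known to act on many promoters of nuclear subunits, and tumours under low oxygen exchange some subunits for isoforms induced by the HIF factors.

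Promoter sequence was one feature that the choice by name did not use. RefSeq promoters on GRCm38.p6, which run 250 bases before to 50 after the start, were found by symbol for 69 of the 87 genes, and letters were searched on both strands. The 10 NRF1 letters, which are the capitals in the sequences of Atp5g2 and the 3 genes printed with it, lay in 5 of the 69 genes (7.25%), against 2.26% of 10688 promoters of genes tested here and 1.07% of all 27025. The ETS letters CGGAAG lay in 30 (43.5%, against 33.8% of tested and 18.8% of all), and the YY1 letters AAGATGGCG in 7 (10.1%, against 3.43% and 1.64%). The HIF letters ACGTG lay in 18 (26.1%, against 29.0% and 21.8%). The 4 motifs were counted separately. A match is a run of letters and says nothing of binding. The genes with and without the letters had like median differences between the tumour groups: -0.14 and -0.13 for NRF1, -0.14 and -0.12 for ETS, -0.13 and -0.13 for YY1 and -0.11 and -0.13 for HIF. To show the NRF1 letters in place, 40 bases are given from the 4 promoters in which they lie wholly before the start: Atp5g2 at chr15:102671065-102671104 on the minus strand, Atp5k at chr5:108434425-108434464 (minus), Cox6a1 at chr5:115349096-115349135 (minus) and Ndufa11 at chr17:56717687-56717726 (plus).
Atp5g2: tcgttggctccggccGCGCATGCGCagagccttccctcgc
Atp5k: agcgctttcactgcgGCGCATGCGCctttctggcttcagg
Cox6a1: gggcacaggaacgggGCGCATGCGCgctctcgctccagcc
Ndufa11: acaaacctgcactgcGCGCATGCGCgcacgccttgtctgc

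Expression is given as TPM, a level per transcript length within a tumour, and a difference is the Cr1l mean less the Vec mean of log2(TPM + 1). Cr1l itself was higher in every Cr1l tumour than in any Vec tumour (76.37, 78.56, 77.91 and 83.57 TPM in Cr1l 1 to 4, against 52.41, 46.29 and 54.94 TPM in Vec 5 to 7), as the labels say. Its difference was 0.62 (adjusted p = 0.119 by limma). Such upward separation was seen in 9.29% of all genes tested. Melanocyte markers were present in all tumours, with 8 of 8 genes measured and summed levels of 9173 to 20406 TPM in Cr1l tumours and 13349 to 20749 TPM in Vec tumours. Of these markers 7 had a negative difference (median of the 8 -0.35), and the groups overlapped for all but Mlana. The tumours were mixtures: macrophage markers (10 of 10 measured) summed to 576 and 987 TPM in Cr1l 1 and Cr1l 2, 5725 and 4842 TPM in Cr1l 3 and Cr1l 4, and 1501, 810 and 495 TPM in Vec 5 to Vec 7. All 10 had a positive difference (median 1.25), with overlap of the groups for each. Globin genes held at most 0.0417% of the summed level in the Cr1l tumours and Vec 5, 4.14% in Vec 6 and 0.973% in Vec 7. The read depth is not known, because TPM does not keep it, and since the libraries do not keep strand, a level may hold antisense transcripts too.

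The summed level of the nuclear subunit genes overlapped between the groups. It was 37975, 37679, 28847 and 28690 TPM in Cr1l 1 to Cr1l 4, against 33822, 34722 and 40374 TPM in Vec 5 to Vec 7, or 3.35 ± 0.529% of all TPM (SD, n = 4) and 3.65 ± 0.360% (SD, n = 3). Cr1l 1 and Cr1l 2 stood above 2 of the vector tumours while Cr1l 3 and Cr1l 4 stood below all 3. Of the 87 genes, 85 had a mean of at least 1 TPM and were tested with limma among 14954 genes. The number past an adjusted p of 0.05 was 0, with 0.0134% of all genes past it.

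Most differences were small and negative. The difference was below 0 for 68 of the 85 genes (80.0%, against 44.6% of all genes tested), and its median was -0.13, against 0.05 over all genes. Before adjustment, limma's p was under 0.05 for 2 genes with higher values in Cr1l tumours (Ndufa4l2 and Cox7a2l, background 9.49%) and 4 with lower values (Ndufb7, Ndufb4c, Sdhb and Cox4i1, background 6.07%). Full separation of the groups was seen upward in 2 genes (Ndufa4l2 and Cox7a2l, 2.35% of the 85, background 9.29%) and downward in 2 (Ndufb7 and Cox4i1, 2.35%, background 6.67%), and both shares lay below the background. After rescaling without the transcripts of the mitochondrial genome 3 genes were separated upward and 0 downward, so that Ndufb7 and Cox4i1 then overlapped, and after quantile normalization 3 upward and 1 downward. The subunit genes were measured with less spread than most: their median SD within groups was 0.23 log2 units, against 0.30 for all genes tested, at a median level of 287 TPM against 16.5 TPM. The direction turned or weakened with a pair of tumours left out. With Cr1l 3 and Cr1l 4 left out, 32 of 85 differences were negative. The median was then 0.07, against 0.08 over all genes tested. These tumours had the lowest subunit sums, so leaving them out raises the median by construction. With Vec 6 and Vec 7 left out 48 were negative, with Vec 5 then assumed to vary like the Cr1l tumours. The median was then -0.02, against -0.02 over all genes tested. The median was -0.03 without Vec 7 alone, -0.05 without Cr1l 3, -0.04 without Cr1l 4 and -0.19 without Cr1l 1. Over all genes tested the medians of the same fits were 0.07, 0.06, 0.07 and 0.03, in that order.

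**Figure D1:**
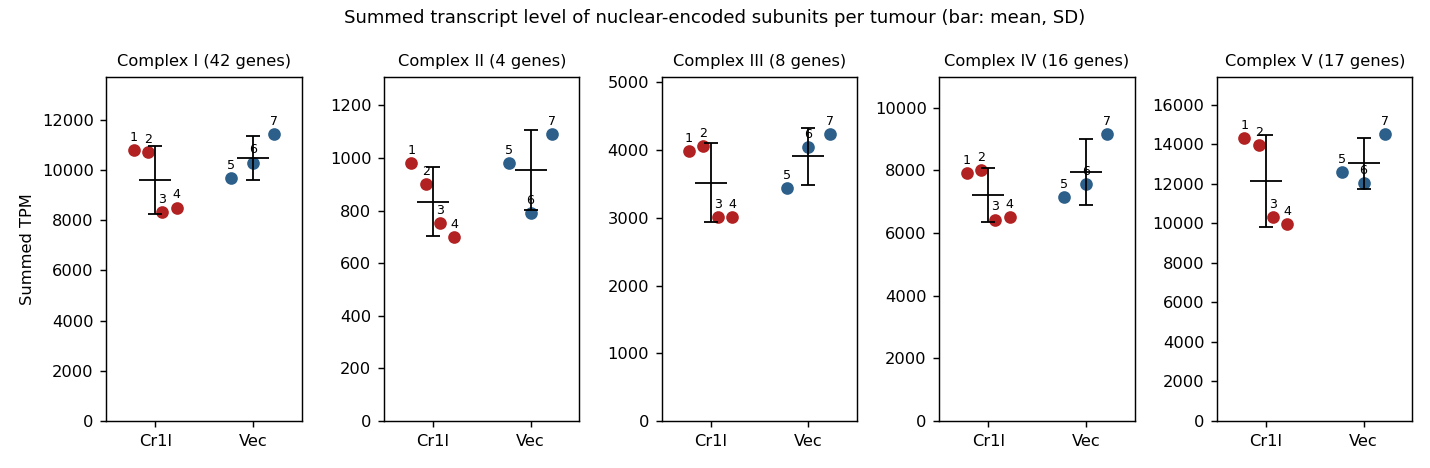
Summed TPM of the nuclear subunit genes of each complex (y axis from 0) in the 4 Cr1l tumours and the 3 Vec tumours, with tumour numbers over the points and bars for mean and SD. In every complex Cr1l 3 and Cr1l 4 lie below every Vec tumour while Cr1l 1 and Cr1l 2 lie among the Vec tumours, so the groups overlap.

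The spread between tumours of a group was larger than the gap between the groups. Relative to each gene's mean over the 7 tumours, the tested subunit genes had a median deviation of 0.15, 0.11, -0.22 and -0.24 log2 units in Cr1l 1 to Cr1l 4 and of -0.04, 0.02 and 0.21 in Vec 5 to Vec 7. Cr1l 3 lay below the 7-tumour mean for 76 of the 85 genes and Cr1l 4 for 74, against 8 for Vec 7, 11 for Cr1l 1 and 16 for Cr1l 2. Over all genes tested the median deviations were between -0.15 and 0.06, and those of Cr1l 3 and Cr1l 4 were -0.02 and -0.05. The single lowest tumour was Cr1l 3 for 31 genes (36.5%, against 16.3% of all genes) and Cr1l 4 for 32 (37.6%, against 19.9%), while Vec 7 was the highest for 38 (44.7%, against 12.4%). Cr1l 3 and Cr1l 4 also had the highest macrophage sums and the lowest melanocyte sums, at 9173 and 10457 TPM, and Vec 7 had the lowest macrophage and highest melanocyte sum. The part of this make-up in the subunit levels was not tested. In bulk RNA, fewer cells of a type and less RNA per cell cannot be told apart.

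**Figure D2:**
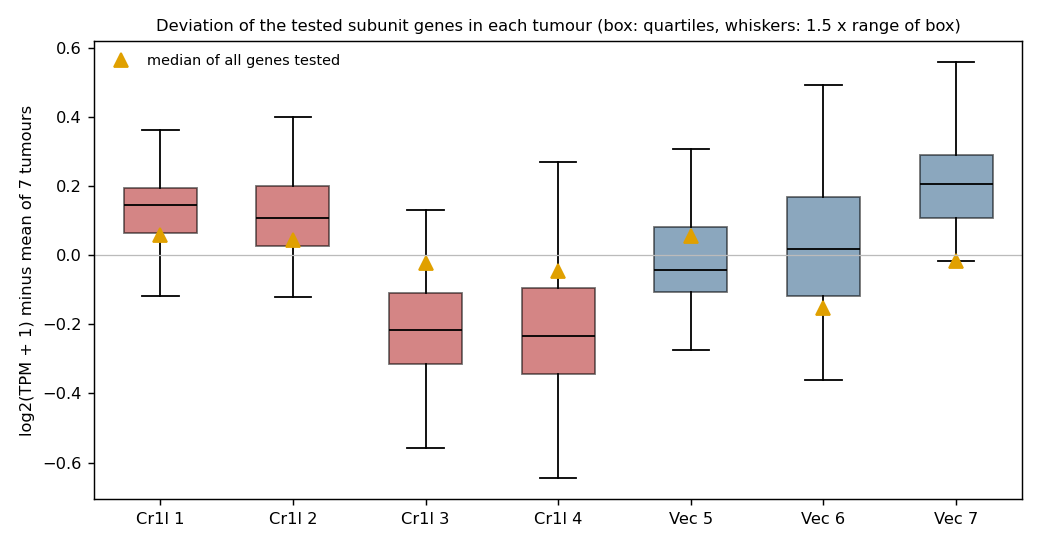
Deviation of 85 subunit genes from their 7-tumour mean in log2(TPM + 1), as boxes per tumour (Cr1l left, Vec right), with triangles for the median of all genes tested. The boxes of Cr1l 3 and Cr1l 4 lie wholly below 0 and those of Cr1l 1, Cr1l 2 and Vec 7 wholly above, while the triangles stay between -0.15 and 0.06.

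Other large sets of housekeeping genes also had mostly negative differences. Of 77 tested cytosolic ribosomal protein genes 62 had a negative difference (80.5%) with a median of -0.14, and of 78 mitochondrial ribosomal protein genes, again without -ps entries, 60 (76.9%) with a median of -0.11. The lowest adjusted p by limma was 0.151 in the first list (Rpl13, 2213 ± 203 TPM in Cr1l tumours, SD, n = 4, and 3563 ± 491 TPM in Vec tumours, SD, n = 3) and 0.282 in the second (Mrps28, 46.2 ± 5.19 TPM in Cr1l tumours, SD, n = 4, and 59.3 ± 4.60 TPM in Vec tumours, SD, n = 3). No test set the subunit genes apart from these lists. With Cr1l 3 and Cr1l 4 left out the cytosolic ribosomal median stayed negative (-0.07). The subunit median was then 0.07 and the median of all genes tested 0.08. With Vec 6 and Vec 7 left out the ribosomal and subunit medians were -0.03 and -0.02, against -0.02 over all genes tested. Downward separation was seen in 13 of the 77 cytosolic ribosomal genes (16.9%, background 6.67%), against 2.35% of the subunit genes. Scaling changed the size of the shift. After rescaling without the transcripts of the mitochondrial genome 60 of 85 differences were negative, with a median of -0.07 against 0.11 for all genes. Median-of-ratios scaling gave 73 negative and a median of -0.19 against 0.00 for all genes. Quantile normalization moved the median of all genes by more than 0.1, to -0.05, and against it the subunit median of -0.09 was lower by 0.04, while the gap was 0.18 in the TPM as deposited.

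The authors' deposited table, made with DESeq2 on the same tumours, also gave mostly negative values. It held an adjusted p for 81 of the genes, with 70 negative, 11 positive and a median log2 fold change of -0.18, against 0.03 over all genes with an adjusted p. In the authors' deposited table a single subunit gene, Ndufa4l2, was higher at an adjusted p under 0.05 (background 4.74%) and 0 were lower (background 2.27%). Which group is the numerator is not stated there, and Cr1l was taken as the numerator because the authors' deposited table gives the gene Cr1l a positive log2 fold change (0.57, adjusted p = 0.00636 by DESeq2).

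Complex I takes electrons from NADH and has a matrix arm with the catalytic core and a membrane arm built largely of small accessory subunits. Its 42 nuclear genes summed to 10793, 10731, 8325 and 8502 TPM in Cr1l tumours, against 9682, 10296 and 11415 TPM in Vec tumours. The median difference was -0.13, with 35 of 40 tested genes negative. The 7 core genes of the matrix arm were all negative by small amounts, between -0.29 for Ndufs8 and Ndufs3 and -0.01 for Ndufs1 and Ndufv2, and 28 of the 33 accessory genes were negative. Ndufv1, which binds NADH, averaged 108 TPM over the 7 tumours. The most abundant gene of the Nduf name was Ndufa4, whose protein is known to sit in complex IV. By their names Ndufa4 and Ndufa4l2 were counted in the sums and accessory genes of complex I, and not in complex IV. Ndufa4 stood at 1025.27, 1069.3, 645.07 and 623.84 TPM in Cr1l tumours and at 912.88, 887.14 and 872.45 TPM in Vec tumours. The Vec tumours thus lay between the higher and the lower pair of Cr1l tumours (log2 difference -0.13, adjusted p = 0.789 by limma). Ndufa3, an accessory subunit, followed with 584.78, 688.53, 644.36 and 522.85 TPM in Cr1l tumours and 488.58, 557.65 and 660.64 TPM in Vec tumours (0.10).

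Ndufa4l2, a paralogue of Ndufa4 known as a HIF target that lowers complex I activity, had the largest positive difference of the 85 on the log2(TPM + 1) scale. Its level was 39.21, 66.42, 100.76 and 200.38 TPM in Cr1l 1 to Cr1l 4, against 17.38, 28.95 and 28.9 TPM in Vec 5 to Vec 7. Every Cr1l tumour stood above every Vec tumour, and the Cr1l tumours spread widely among themselves. Cr1l tumours averaged 102 ± 70.4 TPM (SD, n = 4) and Vec tumours 25.1 ± 6.67 TPM (SD, n = 3). The log2 difference was 1.76 (SE 0.50, adjusted p = 0.225 by limma). In the authors' deposited table the log2 fold change was 1.96 (SE 0.54) with an adjusted p of 0.0109, so their test called it and limma did not. Across the limma alternatives the difference was 1.03 to 2.23 with an adjusted p of 0.158 to 0.753, and the 1.03 came with Cr1l 3 and Cr1l 4 left out.

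Of 14 listed targets of the hypoxia response 13 had a positive difference (92.9%, against 55.4% of all genes tested). Their median difference was 0.52, and 0 passed the adjusted test by limma. They included Vegfa, the vessel growth factor, at 422 ± 153 TPM in Cr1l tumours (SD, n = 4) and 182 ± 23.4 TPM in Vec tumours (SD, n = 3; log2 difference 1.15, adjusted p = 0.179 by limma). Car9, a carbonic anhydrase, differed by 1.24 (adjusted p = 0.244) and Bnip3l, a mitophagy receptor, by 0.52 (adjusted p = 0.270). Cr1l 3, second highest for Ndufa4l2, was the lowest Cr1l tumour for Vegfa (268.21 TPM), Car9 (125.84 TPM) and Bnip3l (120.99 TPM). It was also the lowest Cr1l tumour for Pdk1, Bnip3, Slc2a1, Ldha, Egln1, Pgk1 and Higd1a. Among the listed targets only Ankrd37, Ndrg1 and Egln3 rose from Cr1l 1 to Cr1l 4 as Ndufa4l2 did. Egln3 stood at 4.46, 7.49, 16.34 and 33.74 TPM. Ndufa4l2 is also a known pericyte gene, and the 8 mural markers summed to 46.5, 53.8, 156.84 and 44.95 TPM in Cr1l 1 to Cr1l 4, against 76.6, 94.3 and 25.1 TPM in Vec 5 to Vec 7. None of the 8 markers was at 0 in any tumour. Of them 7 had a positive and Des, shared with muscle, a negative difference (-1.85). Without Des the sums were 42.4, 48.5, 143.4 and 40.3 TPM in Cr1l 1 to Cr1l 4, against 49.7, 31.1 and 16.6 TPM in Vec 5 to Vec 7, and Cr1l 4, the highest for Ndufa4l2, had the lowest of the Cr1l tumours. Whether either the hypoxia genes or mural cells had a part in the Ndufa4l2 values was not tested.

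Ndufb7, a membrane-arm subunit facing the intermembrane space, had the smallest p among the complex I genes with lower values. It stood at 258.14, 274.36, 224.88 and 211.97 TPM in Cr1l tumours and at 281.56, 349.91 and 410.34 TPM in Vec tumours. The groups did not overlap, though Cr1l 2 and Vec 5 were close. The log2 difference was -0.51 (SE 0.16, adjusted p = 0.244 by limma), and it was -0.22 with Vec 6 and Vec 7 left out. Ndufb4c, a copy of the accessory gene Ndufb4, stood at 177.5, 136.15, 148.76 and 127.87 TPM in Cr1l tumours, against 193.04, 210.53 and 171.38 TPM in Vec tumours, with Cr1l 1 above Vec 7 (log2 difference -0.38, adjusted p = 0.291). Ndufb4 itself differed by 0.04 and the low copy Ndufb4b by -0.51, and since reads can be split between such near-identical copies the 3 values are uncertain. The copies Ndufa11b and Ndufs6b were below the limit of 1 TPM, with at most 0.60 and 1.19 TPM in a tumour and values listed at 0 in all 3 Vec tumours.

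Complex II oxidises succinate and links the chain to the TCA cycle. Its genes had the lowest median level of the 5 complexes, between 132 TPM for Sdha and 386 TPM for Sdhb, and its median difference was 0.05, with 3 of 4 genes positive. Sdhb, the iron-sulfur subunit, was the exception, with 426.73, 370.62, 262.43 and 237.75 TPM in Cr1l tumours and 451.9, 405.41 and 548.59 TPM in Vec tumours. Only Cr1l 1 reached into the range of the vector tumours (log2 difference -0.56, SE 0.23, adjusted p = 0.305 by limma), and the difference was -0.22 with Cr1l 3 and Cr1l 4 left out. Sdha, the flavoprotein with the succinate site, stood at 152.41, 141.83, 133.95 and 126.13 TPM in Cr1l tumours, against 153.31, 81.29 and 135.47 TPM in Vec tumours (0.21, adjusted p = 0.631), and its sign turned without Vec 6 (-0.06), the lowest tumour. The membrane anchors Sdhc and Sdhd both differed by 0.05. Sdhc stood at 202.96, 195.3, 184.5 and 170.5 TPM in Cr1l tumours and at 177.72, 150.13 and 225.35 TPM in Vec tumours. Sdhd stood at 199.48, 193.23, 171.47 and 165.72 TPM in Cr1l tumours, against 197.34, 153.13 and 180.21 TPM in Vec tumours. The groups overlapped for both, and Sdhd turned its sign without Vec 6 (-0.05) and under median-of-ratios scaling (-0.01).

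Complex III hands electrons from ubiquinol to cytochrome c. Its 8 nuclear genes summed to 3982, 4065, 3015 and 3019 TPM in Cr1l tumours, against 3437, 4053 and 4232 TPM in Vec tumours, with a median difference of -0.12 and 7 of 8 negative. The Rieske protein gene Uqcrfs1 and the core protein genes Uqcrc1 and Uqcrc2 were lowest in level (149 to 188 TPM) and differed by -0.13 to -0.09. The small subunits reached 888 TPM (Uqcr10). Uqcrq, which contacts cytochrome b, stood at 728.31, 758.47, 576.19 and 576.43 TPM in Cr1l tumours and at 684.3, 988.75 and 859.28 TPM in Vec tumours (-0.35, SE 0.17, adjusted p = 0.361 by limma), with Vec 5 inside the Cr1l range. Uqcr10 stood at 966.35, 951.91, 668.32 and 705.77 TPM in Cr1l tumours and at 814.96, 1025.5 and 1082.79 TPM in Vec tumours (-0.25, adjusted p = 0.509). Uqcrh, the hinge protein at the cytochrome c1 contact, was the 1 gene with a positive difference, at 614.66, 696.49, 570.77 and 524.61 TPM in Cr1l tumours and 475.59, 567.63 and 600.88 TPM in Vec tumours (0.13, adjusted p = 0.651). With Cr1l 3 and Cr1l 4 left out the median of the complex was 0.11, against 0.08 over all genes tested.

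Complex IV, cytochrome c oxidase, reduces oxygen, and it is the complex with most tissue-specific isoforms. Its 16 genes summed to 7913, 8009, 6431 and 6508 TPM in Cr1l tumours, against 7142, 7564 and 9148 TPM in Vec tumours, with a median difference of -0.06 and 10 of 16 negative. The 10 widely expressed subunit genes lay between 392 TPM (Cox5a) and 1115 TPM (Cox6a1) and 8 of them had a negative difference. Cox4i1, the regulatory subunit that binds ATP and the common counterpart of the hypoxia-induced Cox4i2, stood at 955.69, 914.81, 890.88 and 736.02 TPM in Cr1l tumours and at 965.13, 1125.48 and 1548.52 TPM in Vec tumours. The groups did not overlap, but Cr1l 1 and Vec 5 nearly met. The log2 difference was -0.45 (SE 0.18, adjusted p = 0.306 by limma), and it was -0.26 without Vec 7 and -0.15 with Vec 6 and Vec 7 left out. Cox6a1, the most abundant, stood at 1153.46, 1159.26, 987.77 and 967.2 TPM in Cr1l tumours and at 1128.44, 1028.67 and 1376.98 TPM in Vec tumours (-0.14, adjusted p = 0.647). Cox6c, a further accessory subunit, stood at 1067.51, 1215.62, 839.88 and 966.79 TPM in Cr1l tumours and at 917.52, 1046.51 and 1121.96 TPM in Vec tumours (-0.02, adjusted p = 0.965). For both the groups overlapped in part.

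Cox7a2l, also called SCAF1, ties complexes III and IV into supercomplexes and is itself not a regular part of the oxidase. Its level was 161.02, 155.17, 180.23 and 179.99 TPM in Cr1l tumours, against 135.6, 130.66 and 114.1 TPM in Vec tumours. All 4 Cr1l tumours lay above all 3 Vec tumours, and the 2 Cr1l tumours that were low for most subunit genes were here the highest. The log2 difference was 0.41 (SE 0.12, adjusted p = 0.225 by limma) and 0.31 to 0.47 over the alternatives, while the authors' deposited table gave 0.36 with an adjusted p of 0.230. To show the promoters of a gene with higher and a gene with lower values and no overlap, the 100 bases before the start are given for Cox7a2l (chr17:83514334-83514433, minus strand, GRCm38.p6) and Ndufb7 (chr8:83566658-83566757, plus strand), with any NRF1, ETS, YY1 or HIF letters in capitals. The ETS letters lay in the Ndufb7 stretch, and none of the 4 sets of letters lay in that of Cox7a2l.
Cox7a2l: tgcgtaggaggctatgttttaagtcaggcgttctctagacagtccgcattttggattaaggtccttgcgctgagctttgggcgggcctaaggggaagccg
Ndufb7: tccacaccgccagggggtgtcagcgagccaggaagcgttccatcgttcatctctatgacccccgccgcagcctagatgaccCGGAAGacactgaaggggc

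**Figure D3:**
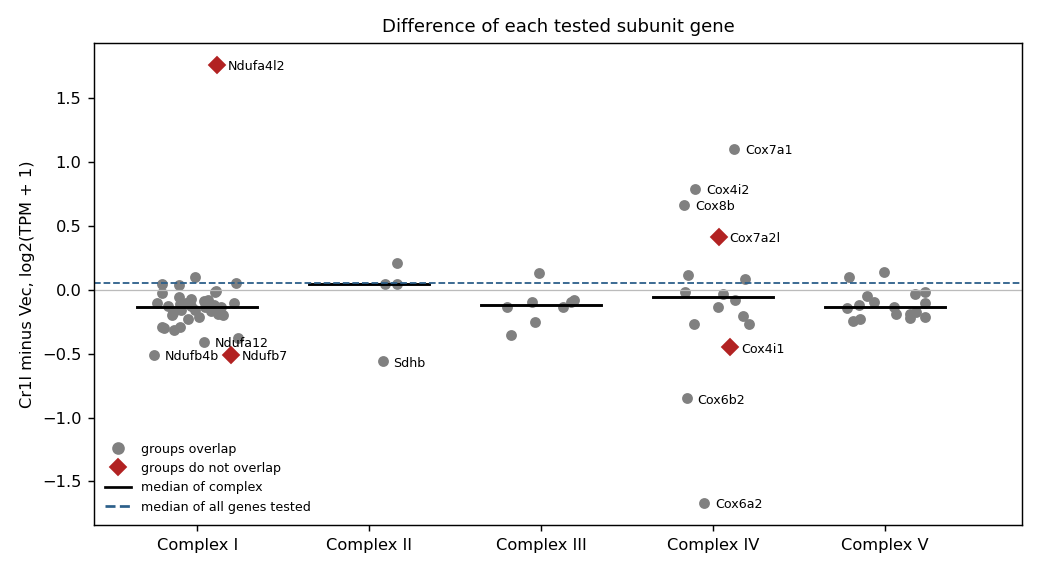
Cr1l minus Vec difference in log2(TPM + 1) of each of 85 tested subunit genes by complex, with red diamonds where the groups do not overlap, black lines for the median of a complex and a dashed line for the median of all genes tested (0.05). Most genes lie just below 0, and the wide values belong to Ndufa4l2 (1.76) and to isoforms of complex IV between -1.67 (Cox6a2) and 1.10 (Cox7a1).

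The isoforms known from muscle, testis or hypoxic tissue varied widely between tumours, and all but Ndufa4l2 were low in level. Cox4i2, the HIF-induced form of subunit 4, stood at 2.14, 1.7, 7.23 and 7.11 TPM in Cr1l tumours and at 3.08, 0.96 and 1.81 TPM in Vec tumours (log2 difference 0.79, adjusted p = 0.449 by limma). It took 0.223%, 0.185%, 0.805% and 0.957% of the summed Cox4i1 and Cox4i2 level in Cr1l tumours, against 0.318%, 0.0852% and 0.117% in Vec tumours, so it was high in Cr1l 3 and Cr1l 4 alone and the groups overlap. Ndufa4l2 took 3.68%, 5.85%, 13.5% and 24.3% of the summed Ndufa4 and Ndufa4l2 level in Cr1l tumours, against 1.87%, 3.16% and 3.21% in Vec tumours. The log2 ratio differed by 1.93 with no overlap (exact permutation test, two-sided p = 0.0571, adjusted p = 0.305 over 8 isoform pairs), and with 35 ways of dividing the 7 tumours into 4 and 3 the smallest p the test can give is 0.0286. For the other 7 pairs the adjusted p was 0.305 to 0.457.

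Cox7a1, the muscle and brown fat form of subunit 7a, stood at 15.16, 20.03, 12.13 and 25.22 TPM in Cr1l tumours and at 2.29, 16.15 and 10.33 TPM in Vec tumours. Vec 5 was far below the rest (log2 difference 1.10, adjusted p = 0.355 by limma, and 0.41 without Vec 5). Cox6a2, the heart and skeletal muscle form of subunit 6a, stood at 0.68, 0.21, 6.54 and 0.72 TPM in Cr1l tumours, against 3.86, 27.59 and 1.69 TPM in Vec tumours (-1.67, adjusted p = 0.393). Cox8b, another muscle and brown fat form, stood at 10.02, 4.15, 4.64 and 5.4 TPM in Cr1l tumours, against 1.06, 19.41 and 0.81 TPM in Vec tumours (0.67, adjusted p = 0.694). The direction of Cox8b depended on the scale, since its mean was 6.05 ± 2.69 TPM in Cr1l tumours (SD, n = 4) and 7.09 ± 10.7 TPM in Vec tumours (SD, n = 3), and the authors' deposited table gave a log2 fold change of -0.40. Vec 6 was the highest tumour for both Cox6a2 and Cox8b, and for Cox6b2, the testis form of subunit 6b, at 0.92, 1.25, 2.68 and 2.99 TPM in Cr1l tumours, against 2.05, 7.29 and 4.18 TPM in Vec tumours (-0.85, adjusted p = 0.363).

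**Figure D4:**
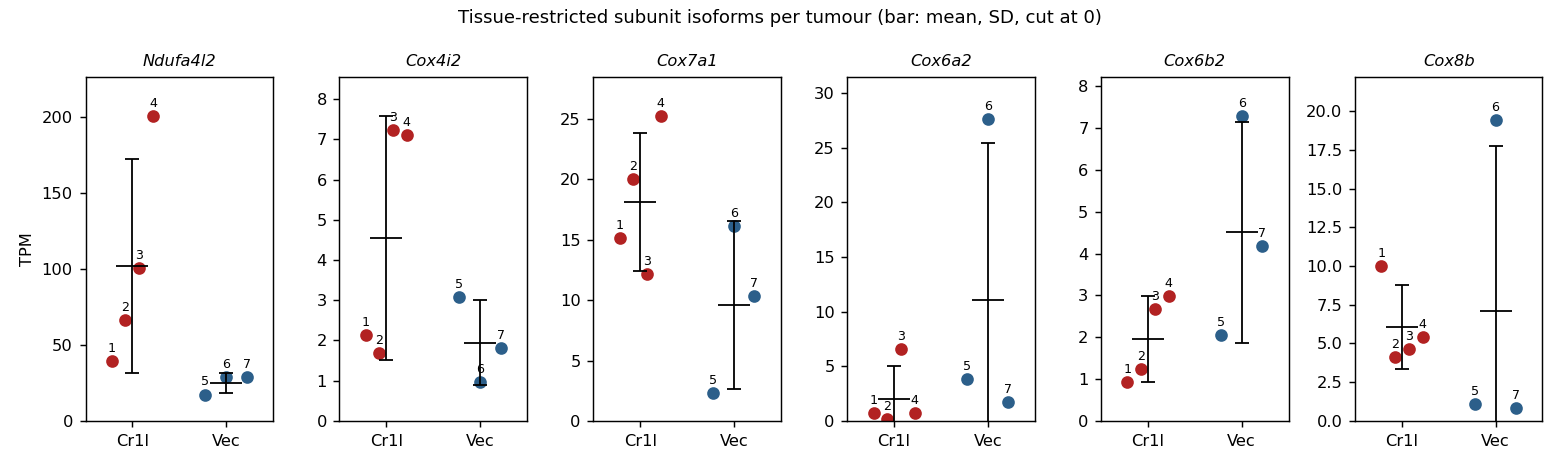
TPM (y axis from 0) of 6 isoform genes in each Cr1l and Vec tumour, with tumour numbers and bars for mean and SD, cut at 0. Ndufa4l2 separates the groups, Cox4i2 is highest in Cr1l 3 and Cr1l 4, and Cox6a2, Cox6b2 and Cox8b are highest in Vec 6.

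Skeletal muscle markers are given beside these isoforms. All 12 were measured and had negative differences (median -2.84), 0 past the adjusted test, and they summed to 29.4, 17.8, 387 and 11.3 TPM in Cr1l 1 to Cr1l 4, against 448.87, 2219 and 91.8 TPM in Vec 5 to Vec 7. As for Cox6a2, Vec 6 was the highest of all and Cr1l 3 the highest of the Cr1l tumours. The other muscle forms had another order. Cox7a1 was highest in Cr1l 4 (25.22 TPM) and lowest in Vec 5 (2.29 TPM). Cox8b was highest in Vec 6, but among the Cr1l tumours in Cr1l 1 (10.02 TPM), and it was low in Vec 5 (1.06 TPM). Myh1, Tnnt3 and Mb, of the contractile apparatus and oxygen store of muscle, were at 0 in Cr1l 1. Of the 8 adipocyte markers 5 were tested, with sums of 34.0 to 312 TPM in Cr1l tumours and 47.6 to 164 TPM in Vec tumours. The brown fat gene Ucp1 was at 0 in 6 tumours and 0.1 TPM in Vec 7. The part of muscle or fat in the isoform values was not tested.

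ATP synthase held the most abundant subunit genes. Its 17 genes summed to 14306, 13973, 10324 and 9962 TPM in Cr1l tumours, against 12582, 12019 and 14490 TPM in Vec tumours, with a median difference of -0.13 and 15 negative. Atp5b, the catalytic beta subunit, was the most abundant of the nuclear subunit genes at 3052.77, 2572.69, 1791.51 and 1568.3 TPM in Cr1l tumours and 2635.69, 1785.23 and 3219.44 TPM in Vec tumours. The groups overlapped over most of their range (-0.19, adjusted p = 0.759 by limma). The 5 genes of F1, the head with the central stalk, were all negative (-0.21 to -0.11). The 4 genes of the peripheral stalk lay between -0.12 and 0.10. The median of the complex was 0.11 with Cr1l 3 and Cr1l 4 left out, against 0.08 over all genes tested.

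The 3 smallest p-values of complex V belonged to Atp5l (subunit g), Atp5j2 (subunit f) and Atp5d (the delta subunit of F1), with differences of -0.25, -0.23 and -0.21 and adjusted p of 0.398, 0.495 and 0.503 by limma. Atp5l stood at 450.79, 427.32, 399.23 and 364.05 TPM in Cr1l tumours and at 417.71, 533.19 and 512.51 TPM in Vec tumours, with Vec 5 inside the Cr1l range. Atp5j2 stood at 449.09, 482.13, 377.08 and 336.28 TPM in Cr1l tumours and at 413, 509.53 and 518.87 TPM in Vec tumours, and Atp5d at 475.4, 448.21, 360.88 and 350.21 TPM in Cr1l tumours and 464.3, 428.05 and 518.17 TPM in Vec tumours. In both, Cr1l 3 and Cr1l 4 were the lowest of the 7. The c ring, which turns with proton flow, is encoded by Atp5g1, Atp5g2 and Atp5g3, whose mature proteins are the same. Atp5g3, the most abundant of them, stood at 1443.34, 1444.28, 1054.24 and 1018.03 TPM in Cr1l tumours and at 1319.73, 1081.82 and 1558.52 TPM in Vec tumours (-0.09, adjusted p = 0.825 by limma). Atp5g1 stood at 25.8% to 29.3% of the summed Atp5g1 and Atp5g3 level in Cr1l tumours and 28.1% to 31.1% in Vec tumours (log2 ratio difference -0.13, exact permutation test, two-sided p = 0.20, adjusted p = 0.305 over 8 pairs). The small membrane gene Atp5mpl had the highest positive difference of the complex (0.14).

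Subunits encoded by the mitochondrial genome had differences of the other sign. All 13 were positive, with a median of 1.22 (at least 0.93 under every alternative that keeps them), 9 without overlap (69.2%, background 9.29%) and 0 past the adjusted test (smallest adjusted p = 0.0702, for mt-Nd1). The differences were uneven, from 0.19 for mt-Co3 to 3.51 for mt-Nd6, and the groups overlapped for mt-Co1, mt-Co3, mt-Atp6 and mt-Atp8. The next largest was 2.86 for mt-Nd3. Since the libraries do not keep strand, the mt-Nd6 level may hold transcripts of the other strand. The sum of the 13 was 74224, 75207, 84421 and 115332 TPM in Cr1l tumours, against 44560, 72397 and 35457 TPM in Vec tumours. The ratio of nuclear to mitochondrial-genome subunit transcripts was thus 0.512, 0.501, 0.342 and 0.249 in Cr1l tumours and 0.759, 0.480 and 1.14 in Vec tumours, with Vec 6 among the Cr1l tumours. The 3 nuclear genes of the pathway outside the choice by name, Cyc1 (cytochrome c1), Ndufab1 (acyl carrier) and Cycs (cytochrome c), differed by -0.23, 0.10 and 0.06.

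Genes that build or regulate the chain showed no shared direction. Of 14 complex I assembly factors 8 were positive and 6 negative (median 0.03), and of 33 tested factors of complexes II to V 20 were positive and 13 negative (median 0.04), with 0 past the adjusted test in either list. Tmem126b, which builds the membrane arm, stood at 17.0 ± 0.581 TPM in Cr1l tumours (SD, n = 4) and 10.2 ± 1.35 TPM in Vec tumours (SD, n = 3; log2 difference 0.69, adjusted p = 0.147 by limma). Coa4, a complex IV factor, stood at 15.7 ± 2.28 TPM in Cr1l tumours (SD, n = 4) and 7.30 ± 2.27 TPM in Vec tumours (SD, n = 3; 1.04, adjusted p = 0.147). Sdhaf1, which helps insert the iron-sulfur clusters of Sdhb, stood at 8.12 ± 1.05 TPM in Cr1l tumours (SD, n = 4) and 12.8 ± 2.08 TPM in Vec tumours (SD, n = 3; -0.59, adjusted p = 0.238). Of 14 genes of mitochondrial biogenesis 7 were positive and 7 negative. Among them Esrra, a nuclear receptor that drives subunit genes, differed by 0.56 (adjusted p = 0.232) and the coactivator Pprc1 by -0.58 (adjusted p = 0.257).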

How the data were processed

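Bulk polyA RNA of 7 tumours was analysed. Per the labels' protocols the libraries do not keep strand. Per the submitters' processing notes RSEM, DESeq2 and mm39 were used. The sources used here give no version, aligner or annotation. The deposited values are log2(TPM + 1) per symbol and tumour. The authors' deposited DESeq2 table holds a mean normalized count (a signal), log2 fold changes, a Wald score, p-values and adjusted p-values. Of the 87 genes 83 were matched through Ensembl identifiers. The table of antigen receptor repertoires was not used.

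The 14954 genes averaging 1 TPM or more were fitted with limma 3.58.1 in R 4.3.3 (group as the only term, trend on mean level), with Benjamini-Hochberg adjustment over all of them. The labels number the tumours 1 to 7 and pair none across groups. Vec 6 and Vec 7 have an unexplained number in their titles, which Vec 5 lacks, and the most globin, so they were left out together, and Cr1l 3 and Cr1l 4 together because earlier results set them apart. They call the samples separate tumours, 1 library each. The log2 ratios of 8 isoform pairs, with 0.1 TPM added, had an exact permutation test of the difference of means. Alternatives were other pseudocounts, filters, scalings, variance models and tumours left out. The fit was tested on simulated data. The genes and lists were chosen with earlier results of these data known; the groupings of core, stalk and similar subunits were written after values were seen. Named with values are, per complex, the 3 genes with the smallest p and the 2 most abundant. The isoform pairs and up to 3 genes of each other list with the smallest p are also named with values. Others named serve counts, ranges, copies or the order of tumours and were chosen after their values were seen. Figures used matplotlib 3.10.9.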

Additional observations from a re-analysis of the deposited data

Results flagged for a closer look

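In the Cr1l group, Cr1l 3 stood apart from the other 3 tumours for Cox6a2, the muscle form of subunit 6a, at 6.54 TPM against 0.68, 0.21 and 0.72 TPM. This gap to the nearest tumour was 0.919 of the range of the group, above Dixon's 95% critical value for 4 samples. Of 36 values examined (named genes and sums per complex) this was the 1 that passed, and chance flags about 1 in 20. Cr1l 3 also had the highest sum of skeletal muscle markers among the Cr1l tumours, at 387 TPM, and the part of muscle in the value was not tested. The Vec group, with 3 tumours, was not examined in this way.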

How the results depend on the processing

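No subunit gene passed the adjusted test under any of the 17 alternatives. The number at an unadjusted p under 0.05 (6) was 3 without the variance trend, 3 with Vec 6 and Vec 7 left out and 3 to 9 with 1 tumour left out. The number without overlap (4) was 3 after rescaling without mt- transcripts (3 higher, 0 lower), 4 after quantile normalization (3 higher, 1 lower), 7 under median-of-ratios scaling, 4 to 16 with 1 tumour left out (11 without Cr1l 1, 16 without Vec 5, 9 without Vec 6, 7 without Vec 7), 19 with Vec 6 and Vec 7 left out and 18 with Cr1l 3 and Cr1l 4 left out; fewer tumours overlap less by construction. With Cr1l 3 and Cr1l 4 left out the medians of complexes III and V turned to 0.11 and 0.11, against 0.08 over all genes tested. Single genes near 0 turned sign in 18 of 457 fits. With Cr1l 3 and Cr1l 4 left out these were Cox6b1 (0.083), Cox7a2 (0.11), Ndufa4 (0.23), Atp5g1 (0.014), Atp5g2 (0.10) and Atp5g3 (0.15), and with Vec 6 and Vec 7 left out Sdha (-0.15), Sdhd (-0.12), Cox6b1 (0.18) and Cox7a2 (0.037). Cox6b1 was 0.025 when rescaled without mt- transcripts, and Sdhd was -0.011 under median-of-ratios scaling. Leaving out 1 tumour gave ranges of -0.14 to 0.082 for Cox6b1, -0.26 to 4.9e-04 for Ndufa4, -0.060 to 0.39 for Sdha, -0.052 to 0.13 for Sdhd and -0.23 to 0.034 for Atp5g3. The difference of Cox6a2 was larger in size than that of Ndufa4l2 in several fits, among them those with a pseudocount of 0.1 (-2.44 and 1.80) and quantile normalization (-1.92 and 1.73). The causes were not tested. The isoform ratios kept their sign in all 64 fits. TPM keeps no depth, so no counting error can be given.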

Other observations

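Enzymes that feed the chain were examined in the same way. Of 17 TCA cycle genes 13 were negative and 4 positive, with a median difference of -0.02 and 0 past the adjusted test by limma, as for the subunits. Mdh2, the mitochondrial malate dehydrogenase, stood at 467 ± 101 TPM in Cr1l tumours (SD, n = 4) and 583 ± 97.3 TPM in Vec tumours (SD, n = 3; log2 difference -0.33, adjusted p = 0.432 by limma). Of 7 other dehydrogenases and electron carriers that deliver electrons to ubiquinone, 3 were positive and 4 negative. Prodh, the proline dehydrogenase, stood at 15.8 ± 3.87 TPM in Cr1l tumours (SD, n = 4) and 23.4 ± 2.24 TPM in Vec tumours (SD, n = 3), with no overlap (-0.56, adjusted p = 0.276 by limma). Etfb, a subunit of the electron transfer flavoprotein, differed by -0.33 (adjusted p = 0.379). Sqor, the sulfide oxidase, stood at 10.4 ± 9.36 TPM in Cr1l tumours (SD, n = 4) and 3.08 ± 1.02 TPM in Vec tumours (SD, n = 3; 0.98, adjusted p = 0.538 by limma).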
